A study of Mus musculus with 10 samples.

Results

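H3K9me3 and Arid1a summits of the same wildtype hepatocyte line were set against each other, to ask where a mark of silenced chromatin and a subunit of a remodelling complex were called at the same places. The members were the 141657 H3K9me3 summits and the 70157 Arid1a summits on autosomes, of 808182 summits in the 8 lists of the series. A summit had a partner when a summit of the other list lay within 1 kb of it. Of the H3K9me3 summits 18437 had an Arid1a partner, and of the Arid1a summits 17658 had an H3K9me3 partner.

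AB17 cells are primary hepatocytes from an Arid1a fl/fl mouse liver, immortalized with SV40 large T antigen and then given H-Ras V12D, so every group carried both oncogenes and the floxed alleles. Wildtype (WT) cells were infected with an adenovirus for GFP (Ad-GFP) and knockout (KO, Arid1a-/-) cells with an adenovirus for Cre (Ad-Cre). Chromatin immunoprecipitation with sequencing (ChIP-seq) gave 1 library per antibody and genotype: H3K9me3 and H3K27me3 in both, and Arid1a, Brg1, Ctcf and Rad21 in WT. The line is a single transformed one, and the lists hold no expression by which hepatocyte identity could be checked.

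H3K9me3 is written by Setdb1 and the Suv39h enzymes, is bound by HP1 proteins, and covers satellite repeats near centromeres, retroviral elements and the bodies of zinc finger genes. Arid1a is the large DNA-binding subunit of the BAF form of the SWI/SNF complex, whose motor is Brg1 (gene Smarca4), and it sits mostly at active promoters and enhancers. The mark and the complex are therefore usually described in different kinds of chromatin.

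Each summit is listed as 1 base with a −log10 q-value, the strength of the call against input. The H3K9me3 list held 57369 summits under 2.5, 78501 from 2.5 to 5, 5468 from 5 to 10 and 319 of at least 10. The Arid1a list held 28210, 40207, 1664 and 76 in the same classes, so both lists consist mainly of weak calls. Both labels were checked, mainly through summits of at least 5. Of the Brg1 summits of at least 5, 66.7% had an Arid1a summit within 1 kb, against a mean of 15.9% after moving the Arid1a list by 10 to 50 kb. Of the H3K9me3 summits of at least 5, 60.0% lay on soft-masked (repeat) bases, against 13.3% for Arid1a. Over the whole lists, mostly weak calls, the shares lay closer, at 39.2% and 25.8%. A KO H3K9me3 summit lay within 1 kb of 30.9% of all WT H3K9me3 summits, and with 1 library per genotype a call missed in one of them and a change cannot be told apart.

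The sequences below show the kinds of site at which both summits were called. Each runs from 30 bases before the first to 30 bases after the last of the pair, plus strand of GRCm38 (mm10). The first set holds gene starts that were not soft-masked throughout, chosen among named genes whose calls are stronger than at most shared starts. Capitals mark a GC box (GGGCGG, bound by Sp and Klf proteins) or an ETS motif (CCGGAAG) on either strand.

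Tab2: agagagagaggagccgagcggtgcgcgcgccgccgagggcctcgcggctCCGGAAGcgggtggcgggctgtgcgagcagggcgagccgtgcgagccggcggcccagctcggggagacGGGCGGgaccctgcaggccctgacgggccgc
Tmem109: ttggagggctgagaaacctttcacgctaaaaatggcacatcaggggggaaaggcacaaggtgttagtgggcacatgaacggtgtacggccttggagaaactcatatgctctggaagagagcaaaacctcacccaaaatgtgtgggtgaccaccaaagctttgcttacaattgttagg
Junb: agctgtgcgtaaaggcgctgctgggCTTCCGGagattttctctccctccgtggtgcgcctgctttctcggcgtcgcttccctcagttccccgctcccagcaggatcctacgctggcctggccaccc
Cbx1: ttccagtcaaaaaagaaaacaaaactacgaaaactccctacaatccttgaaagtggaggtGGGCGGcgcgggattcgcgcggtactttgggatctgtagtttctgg
Zfp809: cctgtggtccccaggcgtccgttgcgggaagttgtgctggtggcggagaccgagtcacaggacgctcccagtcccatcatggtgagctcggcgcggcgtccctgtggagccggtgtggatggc

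The Tab2 window lay at chr10:7956474-7956621, upstream of the start of this TAK1 adaptor gene, and had a GC content of 79.7%. The Tmem109 window, within 2 kb of the start of a membrane protein gene, lay at chr19:10882073-10882249, had a GC content of 48.6% and held neither motif. The Junb window lay at chr8:84978582-84978707, just inside the gene of this AP-1 subunit. The Cbx1 window lay at chr11:96788983-96789088, upstream of the gene of the heterochromatin protein HP1 beta. The Zfp809 window lay at chr9:22225752-22225874, inside the 5′ end of a gene whose zinc finger protein directs retroviral silencing, and also held neither motif.

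The second set shows soft-masked pairs from among the strongest. Capitals mark AAAATGAGAAA or its reverse complement TTTCTCATTTT, the longest run of letters common to the Gm21738 window and both distal windows on either strand.

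Gm10715: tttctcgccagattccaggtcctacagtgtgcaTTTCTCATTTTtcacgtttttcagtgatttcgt
Gm21738: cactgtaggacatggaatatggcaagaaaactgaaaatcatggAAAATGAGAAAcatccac
distal pair 1: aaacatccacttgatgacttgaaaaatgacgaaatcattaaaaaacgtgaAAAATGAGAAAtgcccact
distal pair 2: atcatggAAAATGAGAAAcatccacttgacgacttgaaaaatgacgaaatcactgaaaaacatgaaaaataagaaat

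These windows were soft-masked throughout, and their GC content was 29.9 to 40.9%. They lay at chr9:3037959-3038024 (Gm10715), chr14:19417240-19417300 (Gm21738), chr9:35305389-35305457 (distal pair 1, in an intron of Gm33838) and chr14:19415872-19415948 (distal pair 2, in an exon of Gm21738). The 2 summits of each pair were 0 to 16 bp apart. The run of letters was chosen as common to the Gm21738 and printed distal windows, so its sharing across chromosomes only describes them. The window of distal pair 3, at chr9:3009396-3009464, is not printed. It was soft-masked throughout and held neither form of the run in full. Its last letters, TTTCTCATT, open the reverse complement of the run, and the window stops there. How reads were placed among such repeats was not tested.

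The lists met more often than moved copies of them did, and the ratios were higher at promoters than at distal sites. Of all H3K9me3 summits 13.0% (Wilson 95% interval 12.8 to 13.2%) had Arid1a, against a mean of 9.04% (range 8.78 to 9.27%) over 10 local displacements of 10 to 50 kb, a ratio of 1.44. Of all Arid1a summits 25.2% (24.8 to 25.5%) had H3K9me3, against 17.4% (17.0 to 17.8%), a ratio of 1.44. Against 100 circular shifts along each chromosome, which do not keep regional density, the ratios were 2.14 and 2.15. A promoter summit here lies within 2 kb of any of 125891 annotated autosomal transcript starts. At promoters 26.5% of H3K9me3 summits had Arid1a against 10.8% after displacement, a ratio of 2.44, and 36.3% of Arid1a summits had H3K9me3 against 19.5%, a ratio of 1.86. Moving the partner list also takes it off promoters, so these promoter ratios do not separate shared promoter position from closer meeting. Gene starts with and without Arid1a are therefore compared further below. At distal summits the ratios were 1.17 (10.2% against 8.66%) and 1.28 (21.3% against 16.7%). A displaced distal summit can meet promoter partners, so distal summits were also counted with distal partners only. The ratios were then 1.53 for H3K9me3 and 1.52 for Arid1a.

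There was no test, since each list came from 1 library. The intervals cover counting error only, and neighbouring summits are not independent.

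**Figure D1:**
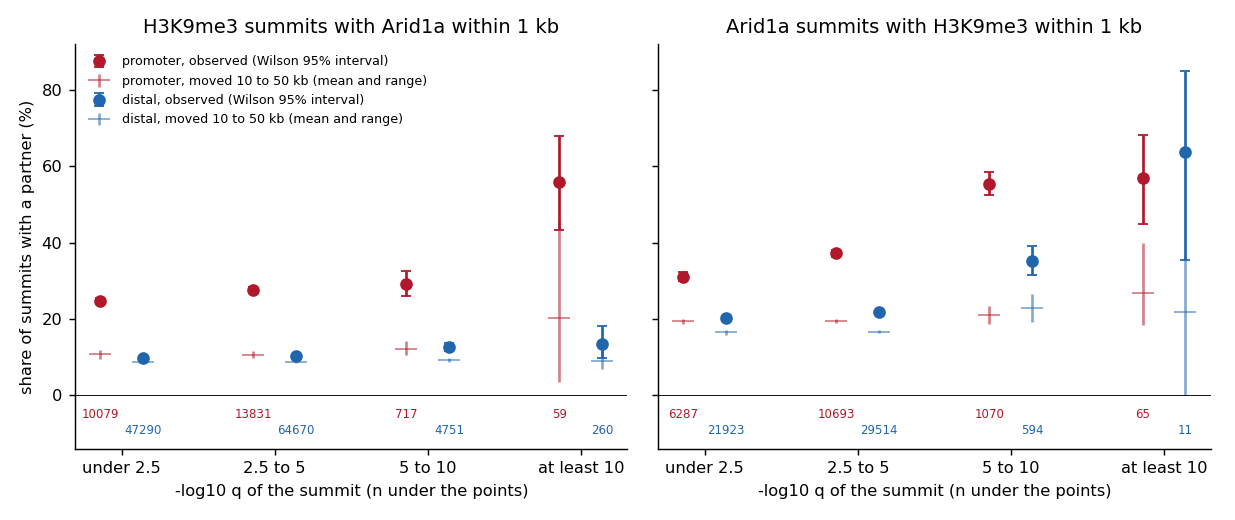
Share of summits with a partner within 1 kb (vertical axis, percent) by −log10 q class of the summit (horizontal axis), for H3K9me3 summits (left) and Arid1a summits (right). Points with Wilson 95% intervals are observed shares at promoter (red) and distal (blue) summits, pale bars are the mean and range after moving the partner list by 10 to 50 kb, and the numbers under the points are summits. Promoter Arid1a summits rise from 31.1% under 2.5 to 55.4% from 5 to 10, and promoter H3K9me3 summits stand at 24.6 to 29.1% below 10.

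Stronger Arid1a summits had H3K9me3 more often. The share was 22.7% under 2.5, 25.9% from 2.5 to 5, 48.2% (45.8 to 50.6%) from 5 to 10 and 57.9% (46.7 to 68.4%) of at least 10. The displaced shares rose less, from 17.2 to 26.1%, and the ratio went from 1.32 to 2.22. At promoters 630 of the 1135 Arid1a summits of at least 5 had H3K9me3 (55.5%), and at distal sites 216 of 605 (35.7%). The promoter share of the Arid1a list also moved with strength, from 25.8% of all summits to 65.2% of those of at least 5.

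For H3K9me3 summits the shares differed between repeat and other bases. Over all of them the shares were 12.4%, 13.3% and 14.8% in the 3 lower classes, and 21.3% (17.2 to 26.1%) for the 319 of at least 10. On soft-masked bases the share was 9.27% under 5, 11.1% from 5 to 10 and 25% (57 of 228) of at least 10. On other bases it was 15.2% under 5, 20.1% (18.5 to 21.8%) from 5 to 10 and 12.1% (11 of 91, 6.89 to 20.4%) of at least 10.

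Few strong calls of both lists met, but more than after displacement. An Arid1a summit of at least 5 lay within 1 kb of 41 of the 5468 H3K9me3 summits from 5 to 10 (0.750%, displaced 0.322%). The same held for 15 of the 319 of at least 10 (4.70%, displaced mean 1.25%, range 0 to 3.45%). In this top class the H3K9me3 summit of each distinct pair lay on a soft-masked base, and several pairs lay before position 3050000 of chromosome 9. Distal H3K9me3 summits of the 2 lowest classes met these strong Arid1a summits less often than displaced copies did, with ratios of 0.69 and 0.84. From 5 to 10 the distal count was 12 of 4751 (0.253%), inside the displaced range of 0.189 to 0.400%. Displaced distal summits can meet promoter partners, and 65.2% of the strong Arid1a summits were at promoters. In the top class the distal count was 7 of 260 (2.69%, displaced range 0 to 1.92%) and the ratio 5.0. At promoters the ratios were above 3 in each class, for example 7.25 from 2.5 to 5 (443 of 13831). Displacement there also takes the partners off promoters.

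H3K9me3 summits were densest next to the Arid1a summits. Around promoter Arid1a summits the density of H3K9me3 summits was 123 and 120 per 1000 Arid1a summits in the 500 bp on each side, against 56.7 and 57.7 at 20 kb. Around distal summits it was 66.5 and 69.1, against 47.6 and 48.1. The limit of 1 kb cuts a smooth tail: 1279 H3K9me3 summits had their nearest Arid1a summit in the last 100 bp inside it and 1190 in the first 100 bp outside. The median distance from an H3K9me3 summit to its Arid1a partner was 398 bp, and 14.2% of these partners were no more than 100 bp away, beside 10.045% for evenly placed partners. For H3K9me3 summits of at least 10 the median was 67 bp, and 52.9% lay within 100 bp.

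**Figure D2:**
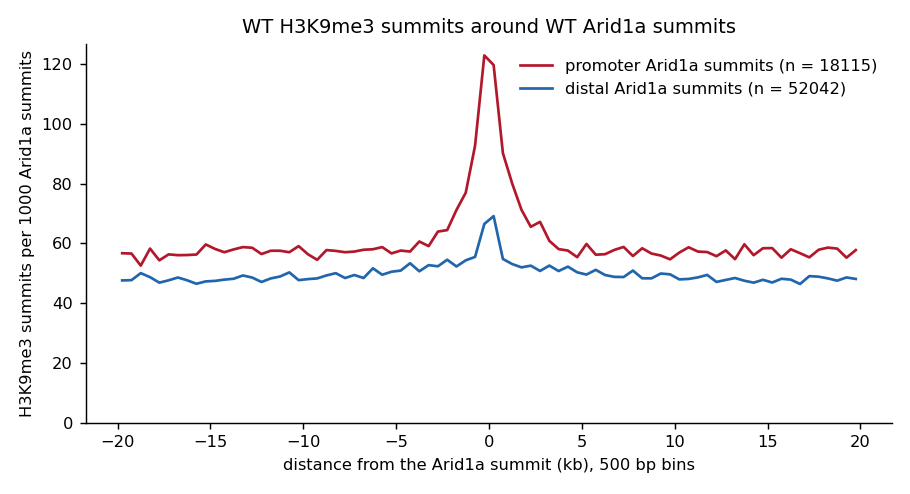
H3K9me3 summits per 1000 Arid1a summits (vertical axis) in 500 bp bins of distance from the Arid1a summit in kb (horizontal axis), for promoter (red, n = 18115) and distal (blue, n = 52042) Arid1a summits of WT cells. Both lines peak at the Arid1a summit, at 123 and 69.1, and the promoter line is at 56.7 and 57.7 in its outermost bins.

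Over all H3K9me3 summits, Brg1 and Rad21 were partners at rates like those of Arid1a, and Ctcf at a lower one. WT H3K9me3 summits met Brg1 at 1.43, Rad21 at 1.36 and Ctcf at 1.25 times the displaced share, and H3K27me3 at 0.92 times. For those of at least 5 the ratios were 1.54 for Arid1a, 1.38 for Rad21, 1.34 for Brg1, 0.98 for Ctcf and 0.57 for H3K27me3. H3K27me3 summits, the polycomb mark, met Arid1a at 0.69 times, with 0.62 for distal and 1.01 for promoter summits. Counted from the Arid1a side, the ratios with H3K27me3 were 0.72 for distal and 0.61 for promoter summits. All WT lists were called against the WT input, and the part of that shared input in these values was not tested.

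H3K9me3 summits with Arid1a also differed from those without it in what else was called there. Brg1 lay within 1 kb of 42.1% (41.4 to 42.8%) of those with Arid1a and 11.0% (10.8 to 11.2%) of those without. Rad21, the cohesin subunit, lay at 38.9% and 14.7%, and the insulator protein Ctcf at 28.7% and 11.6%. Soft-masked bases held 28.5% and 40.8%. H3K27me3 lay at 4.32% and 8.99%.

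The promoter partners were mostly absent from the KO list, which was poorer in promoter summits as a whole. Promoters held 9.58% of KO and 17.4% of WT H3K9me3 summits. A KO summit lay within 1 kb of 18.9% of all promoter WT H3K9me3 summits and 33.4% of distal ones. Of promoter H3K9me3 summits with Arid1a, 12.3% were within 1 kb of a KO H3K9me3 summit, as were 21.3% of promoter summits without Arid1a. Restricted to WT H3K9me3 summits with such a KO summit, promoter Arid1a summits met H3K9me3 at 4.47% against 4.64% after displacement, a ratio of 0.96 in place of 1.86. The ratio for distal Arid1a summits stayed at 1.26. The KO H3K9me3 list as a whole met the WT Arid1a positions at 6.98% against 6.78% displaced, a ratio of 1.03, and at 1.39 for its promoter summits. Counted from the Arid1a side, promoter Arid1a summits met KO H3K9me3 less often than after displacement, at 8.55% against 10.9%, a ratio of 0.785 (0.748 to 0.823). The difference between genotypes was not tested, with 1 library each.

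Among H3K9me3 summits of at least 10 that had an Arid1a summit within 100 bp, 28 of 36 (77.8%, interval 61.9 to 88.3%) held AAAATGAGAAA or its reverse complement in the 201 bases about them. It was held by 3 of the 251 summits of this class without Arid1a (1.20%), by 22 of 20807 protein-coding gene starts (0.106%) and by 0.0854% of H3K9me3 positions moved by 10 kb. The run of letters was read off the printed pairs, which belong to the 36, so this is a description of them. Of the 57 soft-masked H3K9me3 summits of at least 10 with Arid1a, 32 lay at or before position 3500000 of their chromosome. On chromosome 9 alone, positions up to 3050000 held 37 H3K9me3, 32 KO H3K9me3, 26 Arid1a, 16 Brg1, 8 Rad21 and 2 Ctcf summits. They held 0 H3K27me3 summits in either genotype. The summits listed there lay between about 3000440 and 3048110. The cut at 3050000 set the upper bound of this stretch, so crowding was not tested. Of the 35 soft-masked summits with Arid1a within 100 bp, 18 had Brg1 and 25 had KO H3K9me3 within 100 bp too.

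The strongest distal pairs, ranked by the lower of their 2 values, included these repeats and others. Distal pair 1, 37562 bp downstream of the start of Rpusd4, had 28.8 for H3K9me3 and 11.96 for Arid1a, 8 bp apart, with Brg1 at 9.87 and KO H3K9me3 at 16.5. Distal pair 2 had 26.0 and 10.2, 16 bp apart. The pair at chr9:3009426-3009434, in an intron of Gm26870, had 25.9 and 9.84. The H3K9me3 summits of these pairs, and of the pairs near Adgre5 and Chst12 given next, lay on soft-masked bases. An intergenic pair 15524 bp upstream of the start of Adgre5, a cell adhesion receptor gene, had 11.0 and 7.84, 1 bp apart, with Brg1 at 12.4 and KO H3K9me3 at 16.1. The fifth, 28909 bp downstream of the start of Chst12, a sulfotransferase gene, had 10.7 and 5.92, with no KO H3K9me3 summit.

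Of 20807 autosomal protein-coding genes, 8423 (40.5%) had an H3K9me3 summit within 2 kb of the start, 7689 (37.0%) an Arid1a summit and 4596 (22.1%) both. In 3717 of the 4596 (80.9%) a pair lay within 1 kb. H3K9me3 lay at 59.8% (58.7 to 60.9%) of starts with Arid1a and 29.2% (28.4 to 29.96%) of starts without, a ratio of 2.05. At starts with none of Brg1, Ctcf and Rad21 the shares were 31.0% and 16.3%, and at starts with all 3 they were 68.1% and 56.9%.

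Both lists favour GC-rich starts, so genes were compared within 5 groups of about equal size by GC content of the 1001 bases about the start. In the lowest group H3K9me3 lay at 36.6% of starts with Arid1a and 10.8% without, and in the highest at 64.9% and 46.1%. The difference fell from 25.8 to 18.8 percentage points from the lowest to the highest group. For KO H3K9me3 the direction was not constant. From the lowest to the highest group it lay at 19.2%, 17.5%, 14.5%, 13.5% and 15.05% of starts with Arid1a, and at 11.2%, 15.6%, 15.002%, 16.6% and 14.1% of starts without.

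**Figure D3:**
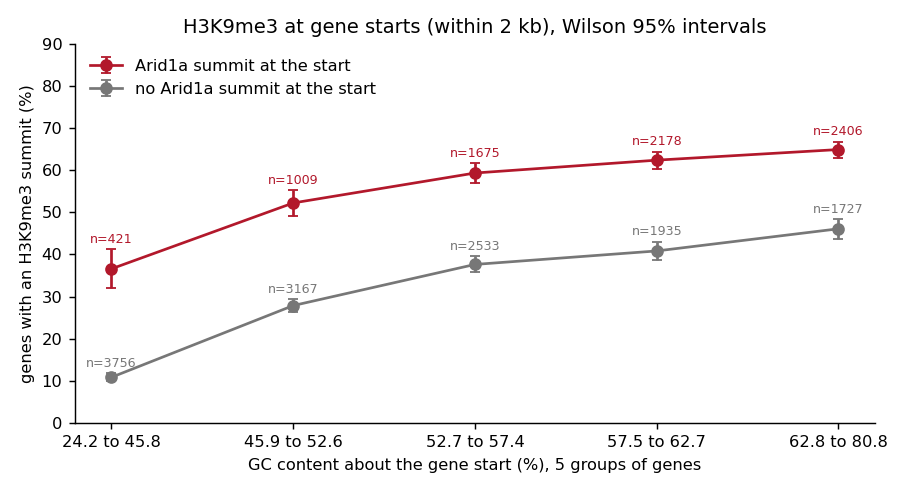
Share of protein-coding genes with a WT H3K9me3 summit within 2 kb of the start (vertical axis, percent) in 5 groups by GC content of the 1001 bases about the start (horizontal axis, percent), for genes with (red) and without (grey) an Arid1a summit there. Bars are Wilson 95% intervals and n is the number of genes. The red points lie above the grey ones in each group, by 18.8 to 25.8 percentage points.

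The difference was positive on each autosome, but its size was not even. It was 35.4 points on chromosome 7, 8.69 on chromosome 14 and 3.96 on chromosome 13. Both lists were also sparse there: chromosome 14 held 18.4 H3K9me3 and 3.67 Arid1a summits per Mb and chromosome 13 held 20.1 and 5.66, against up to 95.5 H3K9me3 per Mb on chromosome 10 and up to 64.5 Arid1a per Mb on chromosome 19. Over the 19 autosomes the densities of the 2 lists had a Pearson r of 0.81 and a Spearman rho of 0.85, a description only, since both were called against 1 input. The ratio of H3K9me3 summits with Arid1a to the displaced share ran from 1.25 on chromosome 18 to 2.52 on chromosome 14.

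Starts with both were also those where Brg1 and Rad21 were called most often. Brg1 lay at 80.7% (79.5 to 81.8%) of genes with both, 67.3% with Arid1a alone and 36.3% with H3K9me3 alone. Rad21 lay at 85.2%, 71.1% and 57.2%. KO H3K9me3 lay at 16.4% of genes with both and at 21.7% of genes with H3K9me3 alone. H3K27me3 lay at 11.1% and 34.2%. At genes with both, the strongest H3K9me3 summit had a median of 2.88 and lay a median of 156 bp downstream of the start, and the strongest Arid1a summit 3.33 and 146 bp.

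Motif letters were counted on both strands at shared and unshared sites. In the 201 bases about promoter Arid1a summits, a GC box lay at 24.6% of those with H3K9me3 and 14.01% of those without, and the ETS motif at 4.72% and 2.57%. Among those of at least 5 the shares lay closer, with a GC box at 40.2% of 630 with H3K9me3 (36.4 to 44.0%) and 35.2% of 505 without (31.2 to 39.5%), and the ETS motif at 7.78% and 7.33%. Median GC content in 501 bases was 53.3% and 45.9% over all promoter Arid1a summits with and without H3K9me3. Among those of at least 5 it was 63.1% and 59.5%. All gene starts held the GC box at 40.8% and the ETS motif at 9.79%, and Arid1a positions moved by 10 kb at 2.66% and 0.678%. The AP-1 motif (TGACTCA or TGAGTCA) lay at 4.90% of distal Arid1a summits with H3K9me3 and 4.02% of those without, against 3.25% of moved positions and 2.83% of gene starts. The CCAAT box (CCAAT, bound by NF-Y) lay at 26.9% and 27.8% of these distal summits, and the forkhead motif (TGTTTAC) at 2.76% and 3.49%. Gene starts held these at 28.1% and 1.56%, and moved Arid1a positions at 26.5% and 2.98%. For distal Arid1a summits of at least 5, AP-1 lay at 5.09% of 216 and 5.91% of 389.

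Only 32 genes had both strongest summits at 5 or more. Genes were ranked by the lower of the 2 values, and all of the first 20 had Brg1, while 5 had KO H3K9me3. Brg1 lay at 80.7% and KO H3K9me3 at 16.4% of all 4596 genes with both. Tab2 (H3K9me3 8.42, Arid1a 10.6) led, followed by Hnrnpab (8.04 and 7.70), an RNA-binding protein gene. Neither had a KO H3K9me3 summit at the start. Tmem109, a membrane protein gene, had 8.75 and 5.97 and a KO summit of 3.77. Kansl2, a subunit of the NSL acetyltransferase complex, had 5.87 and 7.01. Timmdc1, an assembly factor of respiratory complex I, had 5.59 and 7.03, and Ptges3, the Hsp90 co-chaperone p23, had 5.57 and 6.05.

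Signalling and cytoskeleton genes were among them too. Jund, an AP-1 subunit gene, had 5.42 and 14.5. Phlpp2, a phosphatase that acts on Akt, had 5.59 and 6.22. Vasp, an actin regulator, had 5.59 and 5.44, and Sh3bp4, an endocytic adaptor, had 5.33 and 7.98. Thap2 and Zfc3h1 share a start region and thus the same summits, at 5.82 and 5.56. The remaining genes were B3gnt2, a glycosyltransferase, Ap5b1, an adaptor complex subunit, Dtymk, a thymidylate kinase, Arfgef1, an Arf exchange factor, and Fbxo22, a ubiquitin ligase subunit, with H3K9me3 from 5.59 to 6.43 and Arid1a from 5.44 to 6.23, and the predicted genes Gm10715, Gm21738 and Gm10717.

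The highest H3K9me3 values at shared starts belonged to predicted genes in repeats. Gm10715 had 25.9 (Arid1a 7.37, KO H3K9me3 58.6), Gm21738 had 25.6 (6.90, 29.4), Gm17535 had 23.6 (4.74, 39.1), Gm10719 had 22.4 (5.03, 18.2) and Gm11168 had 22.3 (4.54, 12.98). Of the 13 genes with both and H3K9me3 of at least 10, 11 had a start GC content under 40% and all 13 had KO H3K9me3. Over all 4596 genes with both, 16.4% had KO H3K9me3. How reads were divided among such repeats was not tested.

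The highest Arid1a values belonged to genes with modest H3K9me3. Parp16, an ADP-ribosyltransferase of the endoplasmic reticulum, had Arid1a 22.8 and H3K9me3 4.79. Junb had 20.9 and 3.20, Tob1, an antiproliferative gene, 17.9 and 4.03, Npm3, a nucleoplasmin gene, 16.4 and 1.48, and Eapp, an E2F partner, 15.4 and 1.55. Of the 26 genes with both and Arid1a of at least 10, all 26 had Brg1 and 4 had KO H3K9me3. Over all 4596 genes with both, the shares were 80.7% and 16.4%.

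**Figure D4:**
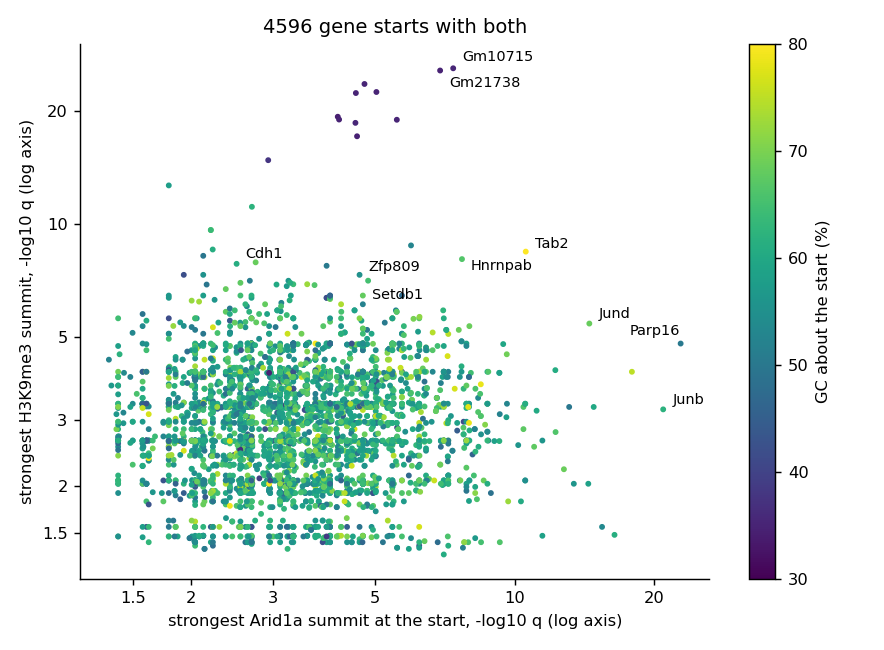
Strongest H3K9me3 summit (vertical, −log10 q, log axis) against strongest Arid1a summit (horizontal, −log10 q, log axis) within 2 kb of the start of the 4596 genes with both, in WT cells, coloured by GC content of the 1001 bases about the start in percent. The dark points at the top, near 20 to 26 for H3K9me3, are GC-poor repeat-like starts such as Gm10715 and Gm21738, and Jund, Junb and Parp16 stand at the right.

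Gene lists were read against these backgrounds of 40.5% for H3K9me3, 37.0% for Arid1a and 22.1% for both. Genes of the H3K9 methylation machinery had both at 12 of 22 autosomal starts, H3K9me3 alone at 1, Arid1a alone at 3 and neither at 6. Setdb1, an H3K9 methyltransferase, had H3K9me3 6.10 and Arid1a 4.70, and Fam208a, the Tasor subunit of the HUSH silencing complex, 5.33 and 3.86. Kdm3a, an H3K9 demethylase, had 3.31 and 5.44, and Cbx1 had 3.31 and 3.99. SWI/SNF subunit genes had both at 11 of 24. Smarcc2 had 4.43 and 7.16, Smarca4 5.09 and 4.22, and Arid1a itself 3.63 and 2.56. Starts in both lists were GC-rich, with a median of 62.2% for the H3K9 methylation genes and 63.0% for the SWI/SNF genes. Counts over all genes of such GC content, given in the next paragraph, were above the background of 22.1%.

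Growth and transformation genes had both often, but their starts were GC-rich, with a median GC content of 59.3 to 63.3% by list. Over all genes, both lay at 1359 of 4113 starts in the group of 57.5 to 62.7% GC. In the group of 62.8 to 80.8% GC both lay at 1562 of 4133. AP-1 and immediate early genes had both at 12 of 20 and at least one of the summits at all 20, for example Ier2 (H3K9me3 4.60, Arid1a 4.51) and Myc (3.90 and 4.70). Ras-MAPK feedback genes had both at 9 of 20, for example Phlda1 (4.60 and 6.65) and Nras (3.43 and 8.34). Cell cycle brake and p53 genes had both at 9 of 18, for example Rbl1 (4.79 and 4.70) and Mdm2 (3.62 and 5.44). Epithelial-mesenchymal transition genes had both at 12 of 20. Vim, the mesenchymal filament gene, had 3.90 and 4.802, and Cdh1, which encodes E-cadherin, had 7.81 and 2.51 with its summits 378 and 374 bp from the start and with no Brg1 or KO H3K9me3 summit.

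Liver gene lists were at or below the background for both. Hepatocyte transcription factor genes had both at 4 of 20 (20%), H3K9me3 alone at 7 and Arid1a alone at 2, and Cebpa had 2.35 and 2.56. H3K9me3 thus lay at 11 of these 20 starts (55%), above its background of 40.5%. Plasma protein genes had both at 2 of 24 (Apoh, 3.89 and 5.31, and Trf, 2.64 and 3.33) and neither at 16. Cytochrome P450 genes of families 1 to 4 had both at 5 of 80 and neither at 59. Median start GC content was 50.1% for plasma protein genes and 47.4% for the P450 genes, against 63.0% for SWI/SNF genes.

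Multigene families differed widely. Ribosomal protein genes had both at 38 of 78 and Arid1a alone at 26, for example Rpl32 (H3K9me3 4.60, Arid1a 5.01). Zfp zinc finger genes had both at 103 of 385, H3K9me3 alone at 80 and Arid1a alone at 77. H3K9me3 lay at 57.2% of Zfp starts with Arid1a and 39.0% of those without. Zfp809 had 7.30 and 4.62. Hox genes had both at 12 of 39, H3K9me3 alone at 16 and Arid1a alone at 3. Olfactory and vomeronasal receptor genes had both at 7 of 1453, H3K9me3 at 64 and Arid1a at 41.

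Histone cluster genes stood at the other end, with Arid1a at 65 of 67 starts (97.01%) and both at 12. H3K9me3 thus lay at 18.5% of the histone starts with Arid1a, against 59.8% over all genes. Of the histone genes 54 lie on chromosome 13, where 7 of 52 with Arid1a had H3K9me3 (13.5%), beside 16.5% of all genes with Arid1a on that chromosome. Of the 13 elsewhere, 5 had both (38.5%). Neighbouring histone genes lie within 2 kb of each other and share summits, as Hist2h2bb and Hist2h3b do (3.31 and 2.77).

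**Figure D5:**
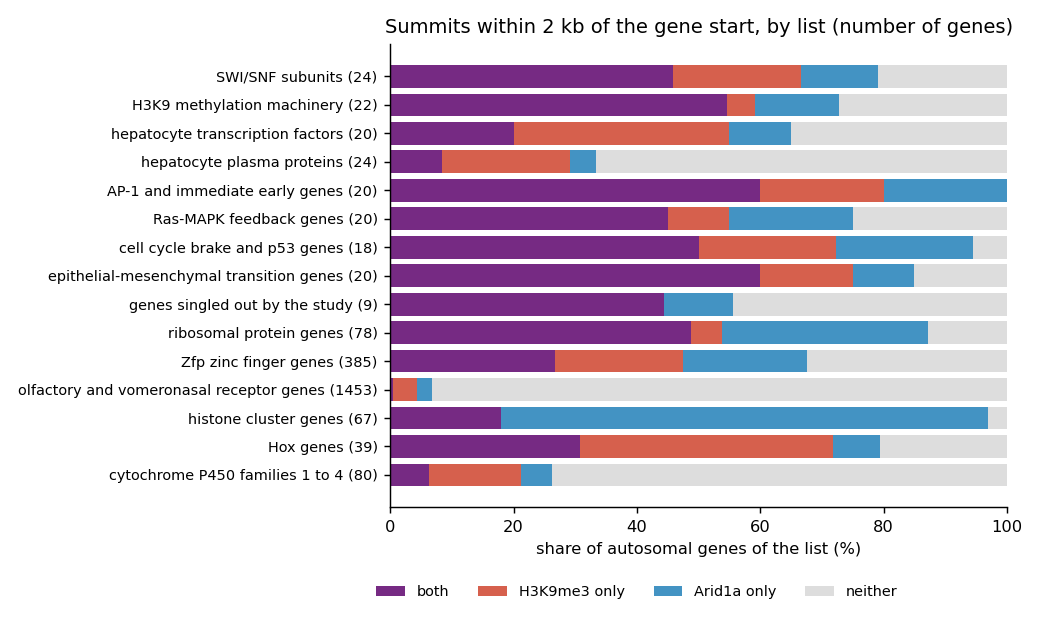
Share of the autosomal genes of each list (horizontal axis, percent; number of genes in brackets) with both summits, H3K9me3 only, Arid1a only or neither within 2 kb of the start. Both is widest for AP-1 and transition genes (60.0%) and nearly nil for olfactory and vomeronasal receptor genes (0.482%), while Arid1a alone fills most of the histone bar.

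Of the genes named by the study, Smarca4, Ctcf (H3K9me3 4.03, Arid1a 3.76), Atg10 (2.64 and 3.99) and Arid1a had both. Rad21 had an Arid1a summit alone, at 1.39. Pmp22, Gsc, Cdh5 and Six2 had neither.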

How the data were processed

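Per the labels and the study's methods, the authors used Bowtie2 and the mm10 genome for alignment, SAMtools to drop reads of low quality, Picard to drop duplicates, and MACS2 defaults with the matched genotype's input for peaks. The deposited lists give 1 base per summit and, in the fifth column, a −log10 q-value, without read counts, so the depth behind a call is unknown. No versions are given in the sources used here. Default settings report narrow peaks, which splits broad marks such as H3K9me3 into many summits. The 2 input samples have no list.

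Summits were read with Python 3.11.15, NumPy 2.4.6 and pandas 2.3.3, and figures drawn with matplotlib 3.10.9. Partners were summits within 1 kb. Transcript and gene starts came from GENCODE M21 and bases from RefSeq's GRCm38.p6, the build of the files (0 summits lay beyond a chromosome end). Shares have Wilson 95% intervals (statsmodels 0.14.6). The partner list was moved by 100 evenly spaced circular shifts and by 10 local displacements. The counting was tested on simulated data with planted partners. Named genes were the 20 with the highest lower value, the 5 highest per list, up to 4 examples per gene list, the 5 strongest distal pairs and genes the study singled out. The members and the 15 gene lists were chosen with earlier results of these data known. Alternatives were the partner limit, the strength minimum, merging, support by KO H3K9me3 or Brg1, sex chromosomes, sites shared by most lists and the windows.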

Additional observations from a re-analysis of the deposited data

Results flagged for a closer look

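Distal WT H3K9me3 summits met WT Arid1a summits at 1.17 times the displaced share, and distal KO H3K9me3 summits met the same Arid1a summits at 0.979 times. The second ratio has a counting interval of 0.958 to 1.001. Counted from the other side, distal Arid1a summits met WT H3K9me3 at 1.28 and KO H3K9me3 at 1.09 times the displaced share (13.5% against 12.5%), so the opposite direction was seen from the H3K9me3 side only. With 1 library each, the difference between genotypes was not tested. Chromosomes X and Y stood outside the comparison. On X, 45 of 1956 H3K9me3 summits had Arid1a (2.30%, displaced 0.450%), and on Y 18 of 222 had it (8.11%, displaced 3.60%), both more than the limit of 3 counts set for a count of 0.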

How the results depend on the processing

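The ratios to displaced shares (all H3K9me3, all Arid1a, promoter Arid1a, distal Arid1a) were 1.44, 1.44, 1.86 and 1.28. With a limit of 500 bp they were 1.64, 1.64, 2.16 and 1.43, with 2 kb 1.26, 1.26, 1.54 and 1.15, with −log10 q of at least 3 1.74, 1.78, 2.39 and 1.43, and with Arid1a summits near Brg1 alone 1.77, 1.76, 2.20 and 1.43. Merging summits within 3 kb gave 1.46 for both lists and 2.0 at promoters. With H3K9me3 summits near a KO summit the first 2 were 1.19 and 1.18, and the promoter ratio fell below 1, to 0.96; the cause was not tested. A promoter window of 5 kb gave 1.62. Added after seeing the data, leaving out soft-masked summits gave 1.71, 1.71, 2.41 and 1.36, promoter partners alone gave 6.21 at promoters, and distal partners alone 1.52 at distal sites. The value of 6.21 stands against promoter partners moved off promoters. The 4596 genes with both became 6988 with a window of 5 kb, 1285 with −log10 q of at least 3 in both lists and 553 with KO-supported H3K9me3. No paired analysis was possible because each group has 1 library. Single libraries without replicates or depth limit every value here: a summit not listed is not shown to be absent.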
